A study of Mus musculus with 6 samples.

Results

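Interferon-induced genes are the genes that cells switch on when interferon reaches them, and 39 of them, chosen by symbol, were read in all 6 libraries of a count table that lists 49315 genes. All 39 were found once each and all 39 passed the filter on low counts, which left 24382 genes for testing. The table holds bulk RNA sequencing of sorted mouse hepatocytes, 3 libraries of GFP-positive cells (miR-206) and 3 libraries of GFP-negative cells (control). By the design text, male C57BL/6J mice received, by hydrodynamic injection at 8 weeks of age, 20 µg of the plasmid pT3-TTR-miR-206-IRES-GFP, in which the hepatocyte-active Ttr promoter drives miR-206 and GFP together, along with 0.8 µg of pCMV/Sleeping Beauty, which supplies the transposase. Perfused hepatocytes were sorted on GFP 4 weeks later. Both fractions came from the same 3 mice by the design text, so that control cells would share the injection and the transposase with miR-206 cells, whereas the sample labels give control cells a wild-type genotype and an empty vector. The data at hand do not settle which holds, and plasmid uptake, GFP and the sort differ between the groups together with miR-206. Mir206 was counted at 0 in all 6 libraries, where 3 counts would be at most 0.546 CPM (counts scaled to library size and by TMM). An mRNA kit gives no measure of the mature microRNA, so the labels could not be checked on it.

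Type I interferons bind a receptor whose kinases, Jak1 and Tyk2, phosphorylate Stat2. A complex that holds Stat2 and Irf9 then binds a promoter motif, the interferon-stimulated response element (ISRE), while interferon gamma acts at another motif, the gamma-activated site (GAS). The genes induced encode sensors of foreign nucleic acid, blockers of viral growth, GTPases that attack the vacuoles of intracellular microbes, and proteins that tune the response itself. Hepatocytes respond to interferon, and so do the Kupffer cells and endothelial cells of the liver sinusoids.

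Because the list was chosen by symbol, the promoters show what its members share in sequence. RefSeq promoter windows (GRCm38.p6, 250 bases before to 50 after a start site) matched 30 of the 39 genes, in 34 windows, and the other 9 were not matched. The ISRE, searched on both strands as GAAA, any 2 bases and GAAA again, lay in 18 of the 30 genes (60%), against 3.99% of all genes with a window, and in 1131 of all 32851 windows (3.44%). The GAS, searched as TTCNNNGAA, which reads the same on both strands, lay in 11 of the 30 genes (36.7%), against 9.55% of all genes with a window and 8.30% of all windows. The stretches below lie upstream of the start site of genes described further on and are shown with each ISRE match in capitals, on the strand of the gene. Where TTTC comes first in the capitals, the motif is on the other strand, and a capital run longer than the motif holds overlapping matches.
Stat2 (chr10:128270251-128270310, plus strand): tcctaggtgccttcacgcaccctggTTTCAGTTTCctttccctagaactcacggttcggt
Ifit1 (chr19:34640779-34640838, plus strand): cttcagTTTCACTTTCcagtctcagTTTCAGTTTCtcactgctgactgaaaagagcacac
Isg15 (chr4:156200850-156200909, minus strand): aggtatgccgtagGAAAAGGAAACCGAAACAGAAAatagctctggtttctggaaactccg
Oas1a (chr5:120907526-120907585, minus strand): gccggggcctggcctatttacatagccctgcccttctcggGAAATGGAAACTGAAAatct
Gbp7 (chr3:142530258-142530317, plus strand): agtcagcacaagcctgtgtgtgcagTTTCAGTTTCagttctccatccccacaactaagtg
Irgm1 (chr11:48871421-48871480, minus strand): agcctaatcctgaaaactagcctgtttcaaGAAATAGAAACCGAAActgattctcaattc
Igtp (chr11:58199496-58199555, plus strand): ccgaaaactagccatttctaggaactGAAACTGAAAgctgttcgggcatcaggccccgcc
Irgm2 (chr11:58214888-58214947, plus strand): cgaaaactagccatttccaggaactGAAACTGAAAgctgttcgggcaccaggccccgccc
Bst2 (chr8:71537562-71537621, minus strand): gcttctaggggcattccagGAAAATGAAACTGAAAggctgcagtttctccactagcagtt
Rsad2 (chr12:26456538-26456597, minus strand): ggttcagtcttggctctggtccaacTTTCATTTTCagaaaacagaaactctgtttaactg
In Isg15 3 matches overlap. A match is a run of letters, not a shown site of binding, and a window with none says nothing about the factor.

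The microRNA that the plasmid carries, mmu-miR-206-3p (RefSeq, GRCm38.p6, chr1:20679055-20679076, plus strand), is printed with its seed, bases 2 to 8, in capitals.
mmu-miR-206-3p: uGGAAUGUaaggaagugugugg
The seed pairs with ACATTCC, which was found in the longest annotated 3′ UTR of 4 of the 39 members (10.3%), against 2116 of 21021 protein-coding genes (10.1%). The 4 sites are shown with that match in capitals, as places where miR-206 could pair with a member directly. Shorter seed matches, other 3′ UTR forms and coding sequence were not searched.
Trim25: acagccacaccACATTCCcaaagcctacca
Oasl2: cttaaatatcaACATTCCcttctcttgctt
Eif2ak2: tttctgagaaaACATTCCtctgccgtggtt
Rsad2: aaatttgagtcACATTCCccctgaagattg
None of the 4 is followed by the A that would make it an 8-base site. Their log2 fold changes, miR-206 over control, were -3.35 for Trim25, -0.61 for Oasl2, -0.37 for Eif2ak2 and 0.15 for Rsad2, of which Trim25 passed the test described below.

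The libraries differed in depth and in background, and this touches every value that follows. Total counts were 4157947, 4939030 and 5724329 in miR-206 libraries and 8966590, 15244017 and 14071679 in control libraries. Mitochondrially encoded genes took 11.2%, 63.8% and 48.7% of the counts in miR-206 libraries and 36.0%, 9.16% and 10.4% in control libraries. Background was read from 1429 genes of olfactory and vomeronasal receptors, which hepatocytes are not known to express, and was 5.31, 3.60 and 5.24 counts per exonic kb in miR-206 libraries and 2.94, 1.39 and 1.22 in control libraries. Control 1 stood apart from the other controls: across the 39 members, log2 CPM in control 1 had a Pearson correlation of 0.776 and 0.758 with that in the other controls, which correlated with each other at 0.981, and 30 members were lowest in it among the controls and 6 highest. Hepatocyte markers, 29 genes, summed to 31842 to 86628 CPM in miR-206 libraries and 106998 to 265269 CPM in control libraries, and none of them was at 0 in either group.

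With the counts as deposited, 26 of the 39 interferon-induced genes were lower in miR-206 cells and none was higher. Scaling the libraries on hepatocyte markers turned this to 1 lower and 15 higher, where 2.81% and 60.8% of all tested genes were. The members that fell with the counts as deposited include all 4 transcription factors, all 5 immunity-related GTPases, tetherin (Bst2), Trim25 and the small membrane protein gene Ifi27. The OAS family and the nucleic acid sensors had the medians nearest to 0. Of all tested genes 29.6% fell and 25.8% rose, and of the protein-coding genes that averaged at least 10 times background 84.8% fell. Among the members at that level 22 of 29 fell (75.9%). Background was lower in control libraries, so genes and members alike could reach that level through the controls, and a fall is in part built into both shares. In bulk libraries, fewer cells of a type and less RNA per cell cannot be told apart.

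The test was edgeR's quasi-likelihood F test on TMM-scaled counts, with p adjusted by Benjamini-Hochberg over all 24382 genes, and a call needs an adjusted p under 0.05. The median log2 fold change of the members was -1.30 (miR-206 over control), against 0.45 over all tested genes and -0.52 over the 16980 protein-coding ones. In 28 members every miR-206 library lay below every control, an order that 30.3% of all tested genes showed, in 0 members every one lay above, and in 11 the groups overlapped. None was higher at an unadjusted p under 0.05 either, nor by DESeq2, which called 27 lower, as it did 7642 of all 24382 genes. Without control 1, which stood apart, 34 members were lower and none higher, beside 8858 lower and 10674 higher of 25524 genes. Leaving out 1 library at a time, 17 of the 26 calls held in all 6 fits. The other 9 were lost in 1 to 4 of them, with adjusted p up to 0.101. The p-values measure the spread between these libraries, and the labels do not say that they came from separate animals in each group.

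**Figure D1:**
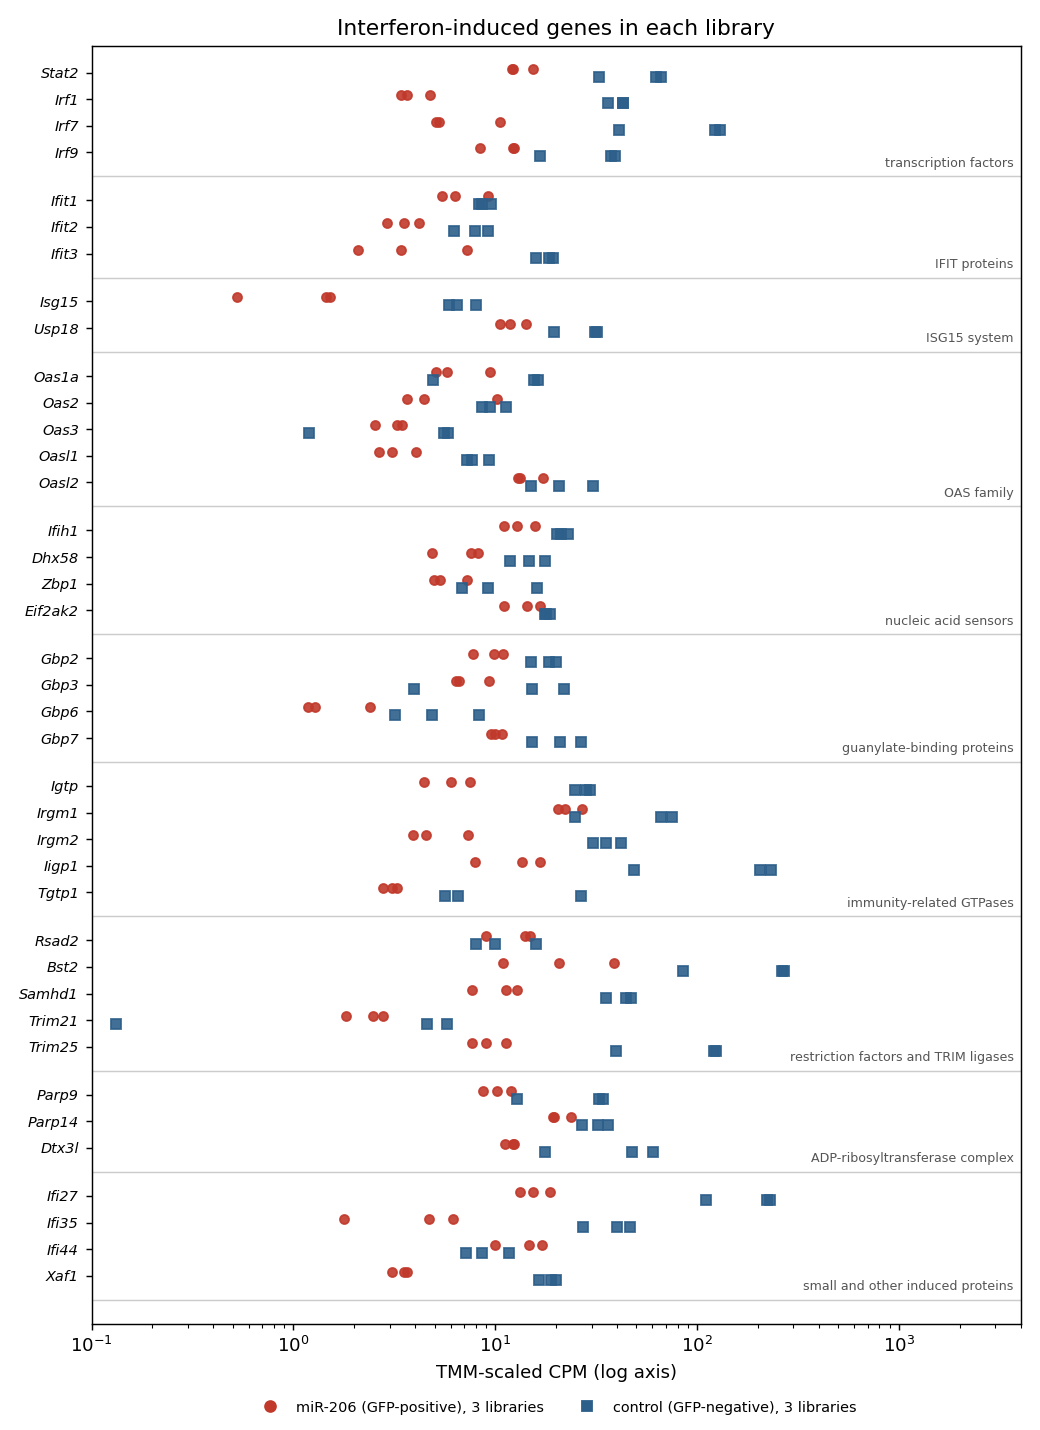
TMM-scaled CPM on a log axis for each of the 39 interferon-induced genes, grouped by role, with 1 point for each of the 3 miR-206 libraries (circles) and the 3 control libraries (squares). In 28 genes all circles lie left of all squares, an order read on this scale alone. Hepatocyte-marker scaling called 15 members higher and 1 lower, where 60.8% and 2.81% of all tested genes were. In Trim21, 1 control library lies far left.

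Summed over the members, the level was 357, 358 and 348 CPM in miR-206 libraries and 896, 1793 and 1737 CPM in control libraries. The 3 miR-206 sums lay close together and below all controls, of which control 1 was the lowest. The picture depended on the denominator. As CPM of nuclear protein-coding genes alone the members took 847, 1361 and 1049 in miR-206 libraries and 1305, 1291 and 1268 in control libraries, so that miR-206 library 2 lay above all controls and the other 2 below. With the background expected from exonic length taken off members and denominator, the values were 678, 1210 and 863 against 1275, 1285 and 1263, and all 3 miR-206 libraries lay below the controls.

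The members also stood closer to background in miR-206 cells. Background at the receptor density would give 31.8%, 31.0% and 33.3% of the members' counts in miR-206 libraries and 7.34%, 1.36% and 1.35% in control libraries. The median member lay at 2.91, 3.18 and 2.84 times background in miR-206 libraries and at 8.99, 33.6 and 48.4 times in control libraries. The receptor genes themselves spread around their mean, with a 95th percentile of 3.80, 3.92 and 3.89 times background in miR-206 libraries and 4.68, 4.06 and 4.36 times in control libraries. Above that bound stood 9, 14 and 11 of the 39 members in miR-206 libraries and 33, 39 and 38 in control libraries. For the members under it, these libraries do not separate a low level from background. The same count was not made over all genes. Hepatocyte markers as a sum also stood closer to background in miR-206 libraries, at 545 to 1447 times against 3088 to 21382 times in control libraries. The shift toward background was therefore not confined to the members.

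**Figure D2:**
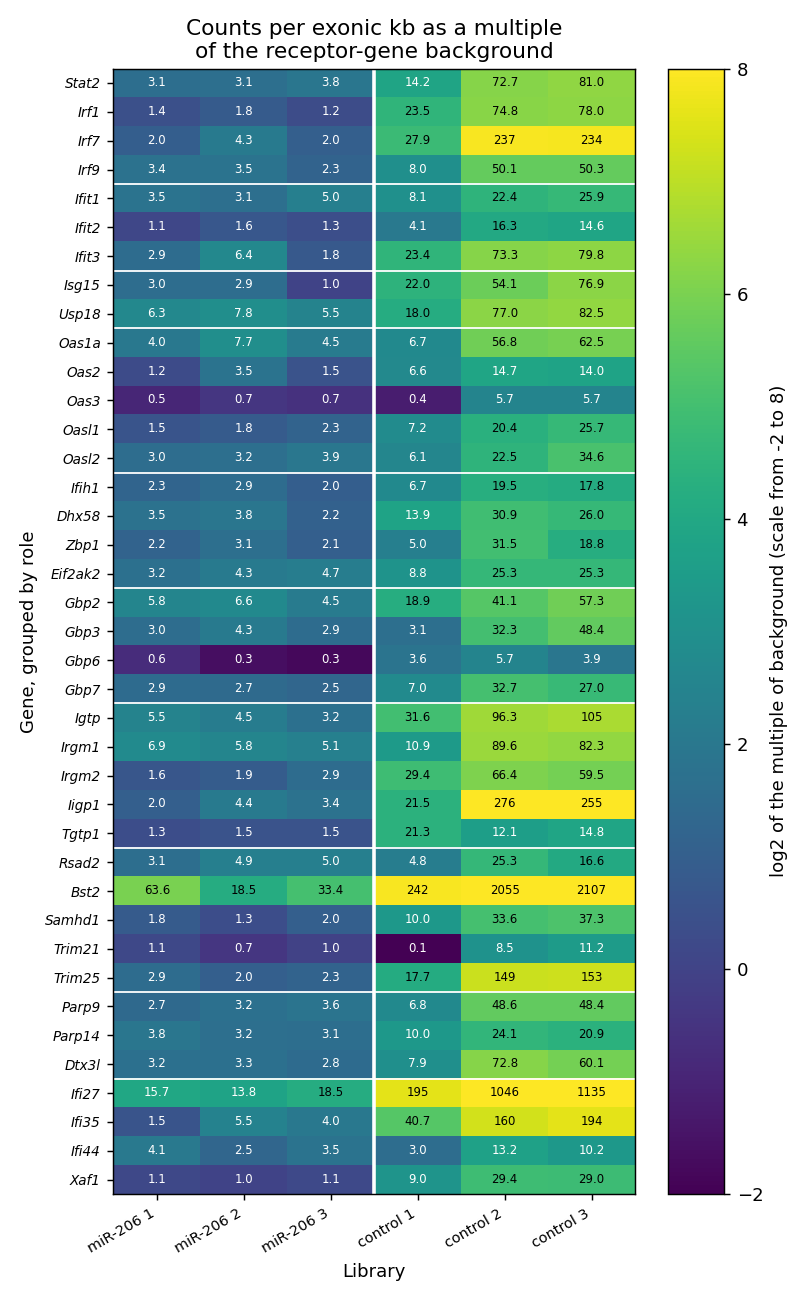
Counts per exonic kb of each member in each library, divided by the density over olfactory and vomeronasal receptor genes in that library. Numbers are the multiples and colour is their log2. The 3 miR-206 columns are mostly between 1 and 6, with Bst2 and Ifi27 as the genes over 10 in all 3. In controls 2 and 3, 36 and 37 members exceed 10. Hepatocyte markers as a sum were also closer to background in miR-206 libraries.

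The transcription factors carry the interferon signal to DNA, and all 4 fell with the counts as deposited, with a median log2 fold change of -2.70 that was -0.29 with hepatocyte-marker scaling. Stat2 (ENSMUSG00000040033, chromosome 10, 128270559 to 128292849) is a signal carrier of the type I response and had 12.1, 12.2 and 15.3 CPM in miR-206 libraries and 32.8, 62.3 and 66.4 CPM in control libraries. The groups did not overlap, and the log2 fold change was -2.02 (SE 0.37, edgeR adjusted p = 0.00168). Irf9 (chromosome 14, 55603571 to 55610030), which gives that complex its DNA contact, had 12.3, 12.4 and 8.38 CPM in miR-206 libraries and 16.6, 39.02 and 37.5 CPM in control libraries. Control 1 came near the miR-206 cells, and the change was -1.50 (SE 0.39, adjusted p = 0.00889). Irf7 (ENSMUSG00000025498, chromosome 7, 141262706 to 141266481), which drives the genes of interferon alpha, had 5.06, 10.5 and 5.24 CPM in miR-206 libraries and 41.0, 130 and 122 CPM in control libraries. This was the largest drop among the members, at -3.82 (SE 0.56, adjusted p = 0.000537). Irf1 (ENSMUSG00000018899, chromosome 11, 53770014 to 53778374), a factor that interferon gamma induces and whose promoter window holds a GAS, had 3.67, 4.73 and 3.40 CPM in miR-206 libraries and 36.3, 43.0 and 42.9 CPM in control libraries. Its controls were close to each other and far from the miR-206 cells (-3.38, SE 0.33, adjusted p = 0.000271), where it lay at 1.37, 1.82 and 1.25 times background.

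Immunity-related GTPases act on the membranes around intracellular parasites and bacteria. All 5 fell with the counts as deposited, with a median of -2.20 that was -0.28 with hepatocyte-marker scaling, where 1 was called higher, Irgm1, and none lower. Iigp1 (ENSMUSG00000054072, chromosome 18), an effector that disrupts parasite vacuoles, had 7.97, 16.7 and 13.6 CPM in miR-206 libraries and 48.8, 232 and 205 CPM in control libraries (-3.67, SE 0.63, adjusted p = 0.00118). Control 1 was far below the other controls and still above all miR-206 libraries. Irgm2 (ENSMUSG00000069874, chromosome 11, 58199618 to 58222782), a regulator of the effector GTPases, had 3.92, 4.55 and 7.33 CPM in miR-206 libraries and 42.1, 35.4 and 30.4 CPM in control libraries (-2.76, SE 0.35, adjusted p = 0.000339). Here control 1 was the highest library. Irgm1 (chromosome 11, 48861968 to 48871683), a regulator also linked to autophagy, had 26.8, 22.2 and 20.4 CPM in miR-206 libraries and 24.7, 75.2 and 66.1 CPM in control libraries. The groups overlapped through control 1. Its call (-1.26, SE 0.44, adjusted p = 0.0319) was lost in 4 of the 6 fits with a library left out, those without miR-206 replicate 2 or 3 or control replicate 2 or 3, with adjusted p up to 0.101, and on hepatocyte-marker scaling it was higher (1.30, adjusted p = 0.0156). Igtp fell with a value of -2.20. Tgtp1, named after its values were seen, passed with -2.07 and had 26.6 CPM in control 1 against 5.60 and 6.57 CPM in the other controls, and its value was -1.07 without that library and its adjusted p 0.0575 without miR-206 replicate 1. Reads of Tgtp1 and its close copy Tgtp2 can be shared, and Igtp and Irgm2 share 162 exonic bases.

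Restriction factors block steps of viral growth, and TRIM proteins are ubiquitin ligases that work with them. In this group 3 of 5 fell, with a median of -1.995 that was 0.29 with hepatocyte-marker scaling. Bst2 (ENSMUSG00000046718, chromosome 8, 71534255 to 71537456), which tethers budding virus to the cell surface, had 38.6, 10.9 and 20.7 CPM in miR-206 libraries and 84.95, 268 and 263 CPM in control libraries. It was the member furthest above background in every library, at 63.6, 18.5 and 33.4 times in miR-206 cells, and its change was -3.13 (SE 0.63, adjusted p = 0.00254). Trim25 (ENSMUSG00000000275, chromosome 11, 88999376 to 89020293), a ligase of the RNA-sensing pathway, had 11.3, 7.64 and 9.03 CPM in miR-206 libraries and 39.6, 124 and 122 CPM in control libraries. The groups were far apart (-3.35, SE 0.51, adjusted p = 0.000623), with control 1 nearest to the miR-206 cells. Samhd1 (chromosome 2, 157097533 to 157135265), which hydrolyses the nucleotides that reverse transcription needs, had 11.3, 7.64 and 12.8 CPM in miR-206 libraries and 35.4, 44.4 and 47.2 CPM in control libraries (-1.995, SE 0.33, adjusted p = 0.000955). It lay at 1.27 to 2.05 times background in miR-206 libraries. Rsad2 and Trim21, named after their values were seen, did not pass, with values of 0.15 and -0.56. Rsad2 was called higher with upper-quartile factors (1.04, adjusted p = 0.0194), library size alone (1.19, adjusted p = 0.0178) and hepatocyte-marker scaling (2.62, adjusted p = 0.00366). Trim21 had 1 count in control 1 against 44 and 51 in the other controls.

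Among the small and other induced proteins 3 of 4 fell, with a median of -2.80 that was -0.39 with hepatocyte-marker scaling. Ifi27 (ENSMUSG00000064215, chromosome 12, 103434211 to 103440239), a small hydrophobic membrane protein, had 15.4, 13.3 and 18.6 CPM in miR-206 libraries and 111, 222 and 230 CPM in control libraries. The change was -3.57 (SE 0.47, adjusted p = 0.000371). It was the 1 member called lower under all 5 scalings, with -1.11 (adjusted p = 0.0248) on hepatocyte markers, and it stood at 13.8 to 18.5 times background in miR-206 libraries. Ifi35 (chromosome 11, 101448407 to 101458698), a leucine zipper protein that binds Nmi, had 1.77, 6.18 and 4.71 CPM in miR-206 libraries and 27.3, 39.95 and 46.4 CPM in control libraries (-3.18, SE 0.46, adjusted p = 0.000511). Xaf1 (chromosome 11, 72301629 to 72313733), an antagonist of the apoptosis inhibitor Xiap, had 3.54, 3.09 and 3.67 CPM in miR-206 libraries and 16.4, 19.9 and 18.8 CPM in control libraries (-2.41, SE 0.31, adjusted p = 0.00035). Both groups were tight, and the miR-206 values were 1.01 to 1.14 times background. Ifi44, named after its values were seen, had the highest value of the members, 0.60, and did not pass (adjusted p = 0.145). It was called higher with upper-quartile factors (1.48, adjusted p = 0.00366), library size alone (1.76, adjusted p = 0.00407) and hepatocyte-marker scaling (2.92, adjusted p = 0.0019), and with a minimum count of 30 (1.10, adjusted p = 0.0111).

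Isg15 is a ubiquitin-like modifier, and Usp18 is the protease that removes it and also damps the type I receptor. Both fell with the counts as deposited, with a median of -1.86 that was 0.51 with hepatocyte-marker scaling. Isg15 (chromosome 4, 156199424 to 156200818) had 1.52, 1.46 and 0.524 CPM in miR-206 libraries, from 12, 8 and 4 counts, and 6.47, 5.92 and 8.04 CPM in control libraries (-2.54, SE 0.51, adjusted p = 0.00255). Usp18 (chromosome 6, 121245906 to 121270917) had 11.9, 14.2 and 10.6 CPM in miR-206 libraries and 19.6, 31.0 and 31.8 CPM in control libraries (-1.17, SE 0.32, adjusted p = 0.0112). Its groups lay closer together than those of Isg15, and in miR-206 libraries Usp18 was 5.54 to 7.76 times background. On hepatocyte-marker scaling Usp18 was called higher (1.28, edgeR adjusted p = 0.0439).

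Parp9 and Dtx3l form a complex of an ADP-ribosyltransferase and a ubiquitin ligase, and Parp14 is another transferase of that family. Of the 3, 2 fell, with a median of -1.37 that was 1.20 with hepatocyte-marker scaling. On that scale Parp9 and Parp14 were called higher (edgeR adjusted p = 0.0477 and 0.0293). Dtx3l (chromosome 16, 35926511 to 35939151) had 12.4, 12.2 and 11.1 CPM in miR-206 libraries and 17.6, 60.2 and 47.6 CPM in control libraries (-1.81, SE 0.44, adjusted p = 0.00663). Parp9 (chromosome 16, 35938470 to 35972605) had 8.73, 10.2 and 11.9 CPM in miR-206 libraries and 12.8, 34.2 and 32.6 CPM in control libraries (-1.37, SE 0.40, adjusted p = 0.0153). Control 1 lay nearest to the miR-206 cells in both, and the Parp9 call was lost without miR-206 replicate 2 (adjusted p = 0.0561). The exons of this gene pair overlap on opposite strands over 458 bases, and with no strand setting in the sources used here reads there cannot be assigned. Parp14 (chromosome 16, 35832874 to 35871544) had 23.8, 19.3 and 19.5 CPM in miR-206 libraries and 36.1, 32.4 and 27.0 CPM in control libraries. Its groups did not overlap, yet it did not pass (-0.61, SE 0.30, adjusted p = 0.104).

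Guanylate-binding proteins coat cytosolic bacteria and vacuoles, and 3 of 4 fell with a median of -0.98, which was 1.36 with hepatocyte-marker scaling. On that scale Gbp3 and Gbp7 were called higher (edgeR adjusted p = 0.0208 and 0.0366). Gbp7 (chromosome 3, 142530342 to 142550149) had 10.8, 10.004 and 9.56 CPM in miR-206 libraries and 15.2, 26.6 and 21.0 CPM in control libraries (-1.05, SE 0.31, adjusted p = 0.017). It was lost without miR-206 replicate 2 or control replicate 2 (adjusted p up to 0.0625). Gbp2 and Gbp6 also passed with all libraries, and Gbp6 lay under background in all 3 miR-206 libraries, at 0.289 to 0.601 times. Gbp2 lost its call without miR-206 replicate 2 or 3 or control replicate 3 (adjusted p up to 0.0771), and Gbp6 without miR-206 replicate 2 or 3 (up to 0.0771). Members of the Gbp family are so alike in sequence that reads may be split between them. Of the 5954 exonic bases of Gbp6, 1726 overlap Gm43302 on the same strand, and 637 bases of Gbp7 overlap Gm43802. Reads there cannot be assigned, and the multiple of background divides by the full exonic length.

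IFIT proteins bind viral RNA and block its translation. Of the 3, 2 fell, with a median of -1.14 that was 1.28 with hepatocyte-marker scaling. Ifit3 (chromosome 19, 34583531 to 34588731) had 3.42, 7.28 and 2.09 CPM in miR-206 libraries and 15.9, 18.5 and 19.3 CPM in control libraries (-2.09, SE 0.44, adjusted p = 0.00317). Ifit3 was low in all miR-206 libraries, though its reads can be shared with the near copy Ifit3b, which had 11 to 17 counts there and 48 to 74 in controls. Ifit1 overlapped between groups, with a value of -0.33, and was called higher on hepatocyte-marker scaling (1.93, edgeR adjusted p = 0.0208). The call of Ifit2 was lost in 4 of the 6 fits with a library left out, those without miR-206 replicate 1 or 3 or control replicate 2 or 3 (adjusted p up to 0.0803).

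Some proteins of the OAS family make oligoadenylates that activate RNase L, and the sensors detect foreign RNA or DNA. Of the 5 OAS genes 1 fell, with a median of -0.70 that was 0.12 with upper-quartile factors, 0.23 with library size alone and 1.82 with hepatocyte-marker scaling. That gene, Oasl1 (chromosome 5, 114923240 to 114937915), which in mice lowers translation of Irf7, had 2.66, 3.09 and 4.06 CPM in miR-206 libraries and 7.27, 7.68 and 9.29 CPM in control libraries (-1.30, SE 0.38, adjusted p = 0.016). It did not pass without miR-206 replicate 1 (adjusted p = 0.0549). Oas1a, Oas2, Oas3 and Oasl2 overlapped between groups and did not pass, with values from -0.87 to -0.45. With hepatocyte-marker scaling Oas1a, Oas3 and Oasl2 were called higher. Among the sensors 1 of 4 fell, with a median of -0.79 that was 0.08, 0.27 and 1.62 on the same 3 scalings. Dhx58, which modulates its relative Ifih1 and lies on chromosome 11 (100694884 to 100704271), had 7.59, 8.19 and 4.84 CPM in miR-206 libraries and 17.7, 14.6 and 11.8 CPM in control libraries (-1.10, SE 0.34, adjusted p = 0.0198). The groups did not overlap, and the call was lost without miR-206 replicate 3 (adjusted p = 0.0567). Ifih1, Zbp1 and Eif2ak2 did not pass, with values of -0.71, -0.88 and -0.37, and all 3 were called higher with hepatocyte-marker scaling.

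Per kb of exon, the highest mean levels in miR-206 cells were those of Bst2 (25.9 CPM per kb) and Ifi27 (10.7), and those in control cells were again Bst2 (228) and Ifi27 (128). The next in miR-206 cells was Usp18 at 4.38 CPM per kb, and the next in control cells Iigp1 at 27.8 and Irf7 at 25.9. The lowest in miR-206 cells were Gbp6 (0.272 CPM per kb) and Oas3 (0.437), and those in control cells were Oas3 (0.592) and Gbp6 (0.917). No miR-206 library had either of these above background, so their levels there cannot be ordered.

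Across the members, a higher level over background in control cells went with a lower fold change, with a Spearman correlation of -0.76 over the 39 genes. Over 16980 tested protein-coding genes the same measure was -0.87. The points share libraries, and the control level enters both axes, so this is a description. Members with the most negative values, among them Irf7, Iigp1 and Ifi27, had a high level over background in control cells, and Ifi44 and Oas3 were among the lowest there.

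**Figure D3:**
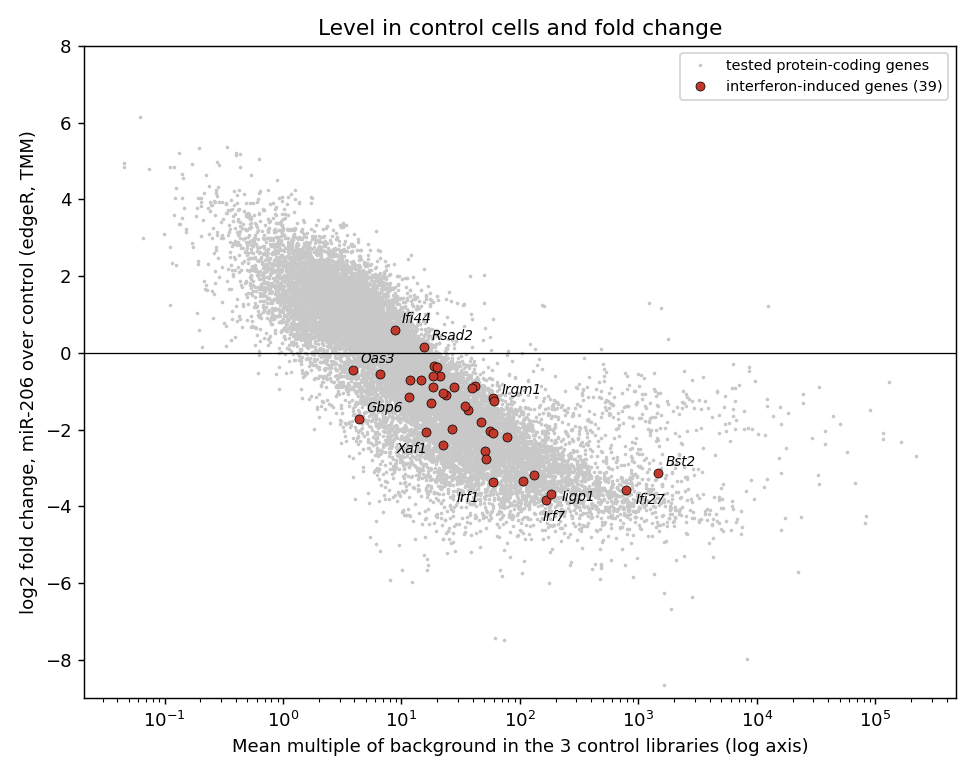
The log2 fold change, miR-206 over control, against the mean multiple of background in the 3 control libraries (log axis), for tested protein-coding genes (grey) and the 39 members (red). The rank correlation is negative in both sets (Spearman -0.76 for members, -0.87 for 16980 genes), and 37 of 39 members lie below 0 on this scale, whereas hepatocyte-marker scaling puts 28 of 39 above 0.

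Library scaling moved the median of all genes from 0.45 with TMM to 0.35 with RLE factors and 1.25 with upper-quartile factors. It was 1.47 with library size alone and 2.58 with hepatocyte markers. The members' median minus that of all genes was between -1.77 and -1.49 in each. A change of scaling moves all genes by nearly the same amount, so this difference was bound to stay similar. The 5 scalings are therefore not separate results for it. On hepatocyte markers 15 members were higher, where 60.8% of all tested genes were, and Ifi27 alone was lower, where 2.81% were. The 15 were Ifit1, Usp18, Oas1a, Oas3, Oasl2, Ifih1, Zbp1, Eif2ak2, Gbp3, Gbp7, Irgm1, Rsad2, Parp9, Parp14 and Ifi44. Of these, Usp18, Gbp7, Irgm1 and Parp9 were called lower with the counts as deposited. Irf1, Irf7, Isg15, Irgm2, Iigp1, Tgtp1, Bst2, Trim25, Ifi27, Ifi35 and Xaf1 kept a negative value under all 5 scalings. With background subtracted and 29 members left, 9 rose and 5 fell, where 18.6% and 20.9% of 6646 nuclear protein-coding genes did. The median was 0.48 against -0.24 over those genes, a narrower set than under the 5 scalings. The members that rose were Ifit1, Usp18, Oas1a, Oasl2, Eif2ak2, Gbp2, Gbp7, Irgm1 and Parp14, and the members that fell were Irf1, Irf7, Trim25, Ifi27 and Xaf1. Of the 22 that were lower as deposited and remained in that fit, 11 turned positive, 4 passed as higher and 5 passed as lower.

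The subtracted values rest on small remainders. With each library left out, Usp18 (1.30 with all libraries, SE 0.28) and Irgm1 (1.30, SE 0.26) passed as higher in all 6 fits. Irf1 (-2.41, SE 0.53) passed as lower in all 6. The number of members that rose ran from 2 without control replicate 3 to 10 without control replicate 1. In those fits 480 of 5312 and 1488 of 6910 genes rose. On library size alone, 1 of the 29 rose, Eif2ak2, and 6 fell, where 494 and 1764 of 6646 genes did. Irf1 and Xaf1, which fell on both readings, were within 1.01 to 1.82 times background in miR-206 libraries, and uncertainty in the subtracted amount is not part of the SE. The fit kept genes whose mean over libraries reached 10 times background, which most members reached through the controls.

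**Figure D4:**
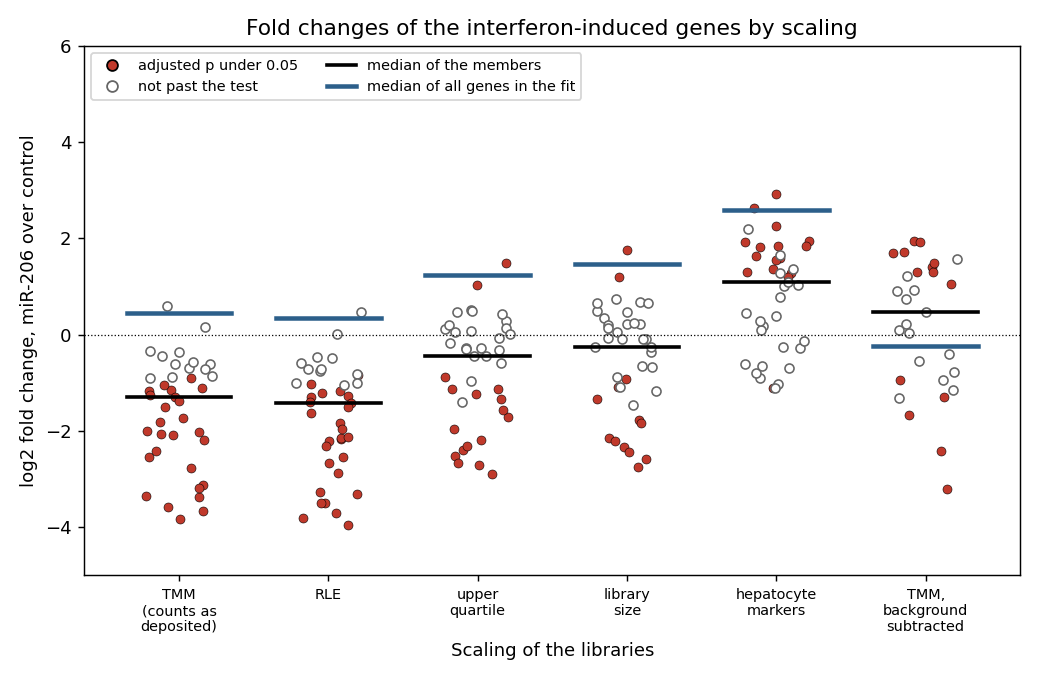
Log2 fold changes of the members, miR-206 over control, under 5 scalings of the deposited counts and after background subtraction (29 of 39 members kept), with filled points past an adjusted p of 0.05. The black line is the members' median and the blue line the median of all genes in that fit. The members' median runs from -1.42 with RLE factors to 1.09 with hepatocyte markers. It lies below the blue line in all 5 scalings, which move all genes nearly alike, and above it after subtraction (0.48 against -0.24).

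Other parts of the pathway were read from lists chosen with earlier results of these data known, and the direction of each list below other than the ligands, negative with the counts as deposited, was positive on hepatocyte-marker scaling. Their counts stand against the 29.6% of all tested genes that fell, the 25.8% that rose and the 84.8% that fell among protein-coding genes at 10 times background, and shares of receptors and inhibitors near that last value say nothing particular about them. Of 6 receptor chains 5 fell and none rose, with a median of -1.67 that was 0.79 on that scale. After subtraction none of the 5 that were kept passed, nor did any at an unadjusted p under 0.05. Ifngr1, a chain of the interferon gamma receptor, had 10.9 ± 1.96 CPM in miR-206 cells and 67.3 ± 20.6 CPM in control cells (SD, n = 3 each). Its log2 fold change was -2.62 (SE 0.39, edgeR adjusted p = 0.000537). Ifnar1, a chain of the type I receptor, had 10.5 ± 1.87 CPM in miR-206 cells and 36.4 ± 3.87 CPM in control cells (-1.80, SE 0.31, edgeR adjusted p = 0.00107).

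Upstream sensors and adaptors start the production of interferon. Of 14 tested, 6 fell and 1 rose, with a median of -1.35 that was 1.16 on hepatocyte markers, and after subtraction 3 of 8 fell and 1 rose. The gene that rose as deposited, named after its values were seen, was the DNA sensor gene Mb21d1, with 10.7 ± 1.23 CPM in miR-206 cells and 3.89 ± 1.16 CPM in control cells (1.47, SE 0.37, edgeR adjusted p = 0.00794). It lay at 3.47, 3.90 and 4.26 times background in miR-206 libraries and 3.13, 4.53 and 6.95 times in control libraries, around the 95th percentile of the receptor genes, so these libraries do not separate its level from background. Myd88, the adaptor of Toll-like receptors, had 1.48 ± 0.457 CPM in miR-206 cells and 26.9 ± 9.76 CPM in control cells (-4.20, SE 0.43, edgeR adjusted p = 0.000271). Irf3, which switches on interferon beta, had 3.27 ± 1.10 CPM in miR-206 cells and 40.5 ± 17.4 CPM in control cells (-3.62, SE 0.46, edgeR adjusted p = 0.000335). Of 9 tested inhibitors of the pathway 8 fell and none rose, with a median of -1.999 that was 0.57 on hepatocyte markers, and 3 of 7 fell after subtraction. Among them Ptpn6, a phosphatase that damps cytokine receptors, had a value of -3.31. Of 57 other interferon-induced genes 29 fell and none rose, with a median of -1.13 that was 1.31 on hepatocyte markers, and 2 were higher at an unadjusted p under 0.05. After subtraction 7 of 31 rose and 7 fell. The immunoproteasome genes Psmb8 and Psme1 fell in both, with -4.06 and -4.16 as deposited and -2.07 and -1.91 after subtraction. DESeq2 called no gene of the receptor, inhibitor or other induced lists higher, and at an unadjusted p under 0.05 edgeR gave 0 in the receptor and inhibitor lists.

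Of 21 interferon ligand genes 4 were tested, and Ifna6 and Ifna15, named after their values were seen, passed as higher. Ifna6 had 11, 9 and 14 counts in miR-206 libraries and 0, 0 and 0 in control libraries, and it stood at 3.64 to 4.69 times background in miR-206 libraries. Ifna15 had 7, 8 and 9 counts in miR-206 libraries and 0, 4 and 0 in control libraries, at 2.30 to 3.88 times background in miR-206 libraries, and passed with edgeR (adjusted p = 0.0405) and not with DESeq2 (adjusted p = 0.0507) or with the replicate number as a block (edgeR adjusted p = 0.0671). The 95th percentile of the receptor genes, 3.80 to 3.92 times background there, was passed by Ifna6 in 2 of the 3 libraries and by Ifna15 in none. All 21 together had 104, 67 and 94 counts in miR-206 libraries and 106, 51 and 31 in control libraries. These raw counts overlapped between the groups. They are not scaled for depth or background, which both differed between the groups, so whether the family differed cannot be read from them.

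Markers of Kupffer cells, endothelial cells and B cells were mostly lower with the counts as deposited, as the members were. Those of dendritic cells were not lower in CPM, but they were lower as a multiple of background. Kupffer cell and macrophage markers (16 genes, 17 identifiers) summed to 117 to 132 CPM in miR-206 libraries and 685 to 2077 CPM in control libraries, with 14 of 17 lower and 1 higher, and stood at 2.85 to 3.30 times background in miR-206 libraries and 28.9 to 236 times in control libraries. The Kupffer cell lectin gene Clec4f had 52, 34 and 46 counts in miR-206 libraries and 597, 3747 and 3497 in control libraries, with control 1 the lowest control. The hepatocyte marker sum was also lowest in control 1, at 106998 CPM against 265269 and 263646 CPM in controls 2 and 3. Sinusoidal endothelial markers summed to 153 to 176 CPM in miR-206 libraries and 709 to 754 CPM in control libraries, with 13 of 13 lower. Those of B and plasma cells summed to 33.5 to 36.7 CPM in miR-206 libraries and 450 to 477 CPM in control libraries, with 5 of 8 lower and 2 higher. Those of T and NK cells summed to 42.9 to 48.6 CPM in miR-206 libraries and 56.3 to 75.1 CPM in control libraries. Of 11 tested, 3 were lower and 1 higher. Those of dendritic cells summed to 54.0 to 69.3 CPM in miR-206 libraries and 46.9 to 53.6 CPM in control libraries, with 1 of 7 higher. The dendritic cell markers stood at 2.37 to 3.12 times background in miR-206 libraries and 3.55 to 11.4 times in control libraries. Hepatocyte markers fell in 19 of 29. Lower were also 5 of 11 stellate, 4 of 6 cholangiocyte, 2 of 7 neutrophil and 2 of 7 red cell and platelet markers, and none was higher. All these counts stand against the 29.6% of all tested genes that fell and the 25.8% that rose. Among protein-coding genes at 10 times background 84.8% fell. After background subtraction hepatocyte markers were higher in 9 and lower in 6 of 28, with a median of 0.72, beside 9 and 5 of 29 members, with 0.48. Kupffer markers were lower in 9 of 14, with a median of -1.58, and endothelial markers higher in 3 and lower in 4 of 13, with -0.60. Of all genes in that fit 18.6% rose and 20.9% fell. On hepatocyte-marker scaling Kupffer markers had a median of -0.99, with 7 lower and 2 higher, and Clec4f a value of -2.84, where the members' median was 1.09. On that scale 2.81% of all tested genes were lower and 60.8% higher. No gene of these lists was at 0 in all 3 libraries of a group. The part of these cells in the fall of the interferon-induced genes was not tested.

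**Figure D5:**
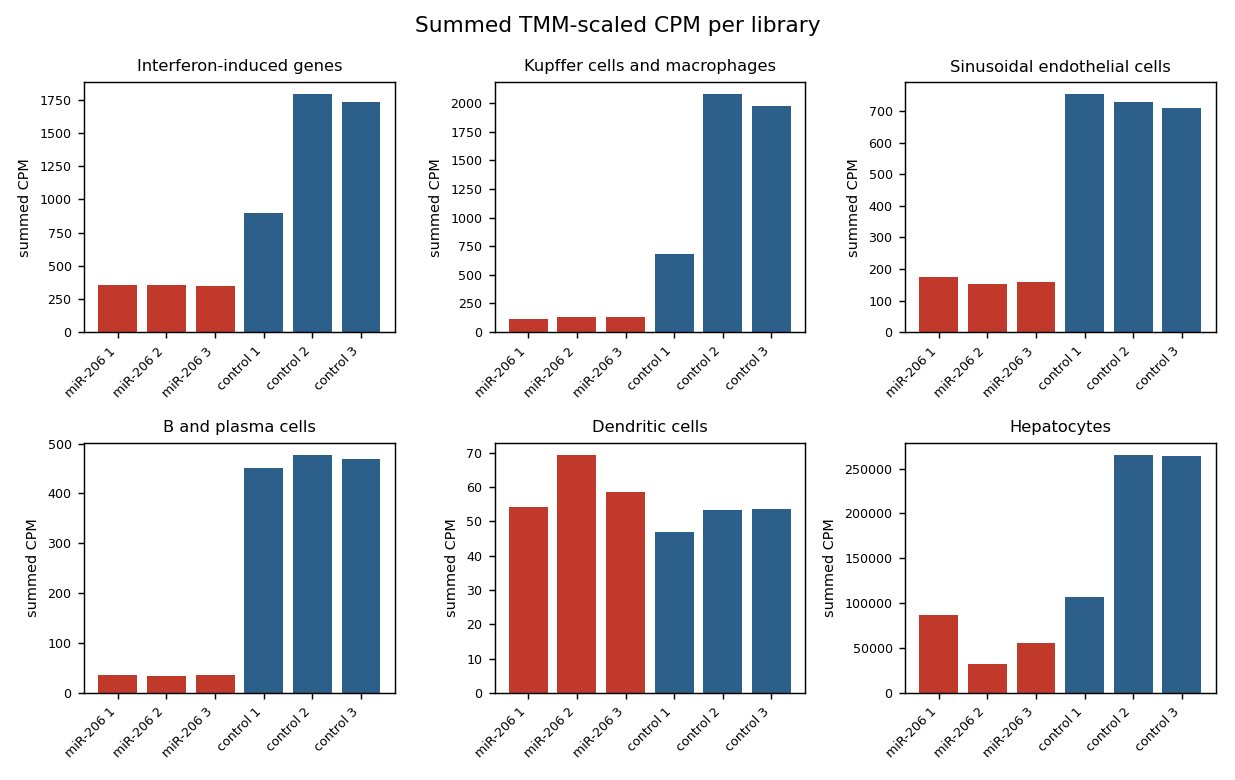
Summed TMM-scaled CPM per library (bars from 0) for the 39 interferon-induced genes and for markers of 5 cell types, with miR-206 libraries in red and control libraries in blue. The members' sum was 348 to 358 CPM in miR-206 libraries and 896 to 1793 CPM in control libraries. Among the controls, every sum but the endothelial one is lowest in control 1, most clearly for the members, Kupffer cells and hepatocytes. The dendritic cell sum is not lower in miR-206 libraries, though it is lower there as a multiple of background (2.37 to 3.12 against 3.55 to 11.4 times).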

How the data were processed

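Raw counts per gene were made by the authors and deposited as 1 table with a column for each of the 6 libraries. Per the labels' protocols, total RNA was isolated with the RNeasy Micro Kit and libraries were made with a SMARTER mRNA-Seq kit. The submitters' processing notes name GRCm 38 and mm 10. No source used here names the aligner, the counting program or the strand setting, so counts of overlapping genes and close paralogs are uncertain. Of the 49315 genes, 48970 matched GENCODE M21 by identifier.

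Genes passing the edgeR 4.0.16 filterByExpr defaults (minimum count 10) were TMM-normalised and tested with its quasi-likelihood F test (robust, group as the only term). The members were read off the fit of the whole table. Code was tested on simulated data. DESeq2 1.42.0 and R 4.3.3 were also used. Background was counts per exonic kb over 1429 receptor genes (5260 kb). The subtracted fit took that density times exonic length from each count, kept nuclear protein-coding genes whose multiple of background averaged at least 10, and normalised and tested again. Hepatocyte scaling used 29 marker genes. On that scale 11 of these markers were themselves called higher and 7 lower, so they did not move together. No libraries were duplicates, since counts within a group differed by a chi-square of at least 7.65 per degree of freedom.

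The members and lists were chosen with earlier results of these data known. Values in every library are given for the 16 members of highest mean CPM and the member of smallest p in each of 10 roles, and the others by counts. At most 3 genes of smallest p were taken from each pathway list. The result of 1 pathway list is not reported here. Limits of detection are 3 counts and cover counting error only.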

Additional observations from a re-analysis of the deposited data

How the results depend on the processing

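With the counts as deposited, 0 members were higher and 26 lower, with a median log2 fold change of -1.30. RLE factors, DESeq2 and leaving out mitochondrial genes each gave 0 and 27. Without a filter on low counts the figures were 0 and 29 with a median of -1.55, and with a minimum count of 30, which left 35 members, 1 and 17 with -0.83. Upper-quartile factors gave 2 and 15 with -0.45, library size alone 2 and 11 with -0.26, and hepatocyte markers 15 and 1 with 1.09. Of 24382 genes, these scalings in the same order called 10629, 11642 and 14815 higher and 4812, 3774 and 684 lower. With a library left out, 0 were higher and 21 to 34 lower, with medians from -1.52 to -1.23. Background subtraction gave 9 and 5 with 0.48 for the 10-fold minimum. The settings that follow were chosen after seeing the data. The 5-fold minimum (36 members) gave 7 and 6 with 0.10, and the 20-fold minimum (17 members) 4 and 1 with 0.012. Subtraction with hepatocyte markers gave 3 and 4 with 0.49, and with library size alone 1 and 6 with 0.0050. With subtraction and a library left out, 2 to 10 were higher and 1 to 6 lower, with medians from 0.094 to 0.56 (0.31 without miR-206 replicate 2). The cause of these shifts was not tested. The filters of 10, 5 and 20 times background left fewer members by construction.

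Deviations of same-numbered libraries from their group means correlated at 0.0082, 0.023 and -0.0064 over all tested genes. Values this near 0, from 3 libraries in each group, do not settle whether a number marks a mouse. The design text names the same mice for both fractions. With the replicate number as a block, 0 members were higher and 23 lower, with a median of -1.26, the members without a call being Ifit2 (adjusted p = 0.0509), Gbp2 (0.051) and Irgm1 (0.0662), and with block and subtraction together 8 were higher and 6 lower, with 0.52. Among miR-206 libraries, replicates 1 and 2 correlated best with the control of their own number and replicate 3 did not. Among controls, only control 2 correlated best with its own number.

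Over the alternatives other than those chosen after seeing the data, single members kept their side of 0 and of the threshold in 444 comparisons. With the sign kept, they lost the call in 69 and gained one in 22. They turned their sign in 75, whatever became of the call. With upper-quartile factors the members that turned were Ifit1 0.52, Oas1a 0.069, Oas2 0.12, Oas3 0.50, Oasl2 0.27, Ifih1 0.13, Zbp1 0.021, Eif2ak2 0.48, Gbp3 0.060, Trim21 0.42 and Parp14 0.21. With library size alone they were Ifit1 0.74, Oas1a 0.21, Oas2 0.23, Oas3 0.67, Oasl2 0.48, Ifih1 0.34, Zbp1 0.20, Eif2ak2 0.66, Gbp2 0.15, Gbp3 0.24, Gbp7 0.064, Trim21 0.67 and Parp14 0.47. With hepatocyte markers they were Stat2 0.45, Irf9 1.04, Ifit1 1.93, Ifit2 1.28, Ifit3 0.38, Usp18 1.28, Oas1a 1.84, Oas2 1.65, Oas3 2.26, Oasl1 1.01, Oasl2 1.82, Ifih1 1.60, Dhx58 1.09, Zbp1 1.64, Eif2ak2 1.94, Gbp2 1.36, Gbp3 1.85, Gbp6 0.18, Gbp7 1.35, Igtp 0.087, Irgm1 1.30, Samhd1 0.29, Trim21 2.20, Parp9 1.20, Parp14 1.56 and Dtx3l 0.79. With background subtracted they were Stat2 0.22, Irf9 0.74, Ifit1 1.95, Ifit3 0.094, Usp18 1.30, Oas1a 1.72, Oasl2 1.69, Dhx58 0.90, Zbp1 1.22, Eif2ak2 1.92, Gbp2 1.41, Gbp3 1.57, Gbp7 1.05, Igtp 0.038, Irgm1 1.30, Parp9 0.93, Parp14 1.49 and Dtx3l 0.48. With a minimum count of 30 they were Ifit1 0.14 and Eif2ak2 0.10. Rsad2, at 0.15 with all libraries, was -0.12 without a filter and ran from -0.18 to 0.40 with a library left out. Depth limits the members most in miR-206 libraries, where Isg15 had 4 to 12 counts and background would give 31.0% to 33.3% of all member counts.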
